A study of Mus musculus with 26 samples.

Results

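The 42 genes described here encode the subunits of the ion channels that glutamate, GABA and glycine open: 18 glutamate receptor subunits, 19 GABA-A receptor subunits and 5 glycine receptor subunits. They were taken by gene symbol from the 37450 rows of the RNA table, and all 42 were found in it. The symbol rule used none of their values, but it was chosen with earlier results of these data known. Mouse embryonic stem (ES) cells were differentiated in culture into spinal motor neurons, and ribosome-depleted RNA was sequenced on 4 days, with 1 library a day among the 26 samples of the study. The day 0 library came from untreated ES cells of the line labelled HBG3. The day 4 library came from HBG3 motor neuron progenitors that had received 1 uM retinoic acid on day 2, together with 0.25 uM SAG, which activates the Hedgehog pathway. The day 5 and day 6 libraries came from cells of the line labelled iCre, given the same agents on day 2. They had also received 5 uM DAPT, which blocks gamma-secretase and so Notch signalling, on day 4 (day 5 library) or on days 4 and 5 (day 6 library), and the labels call these cells postmitotic motor neurons. A second label names Ainv15 ES cells as the origin of every sample. The step from day 4 to day 5 therefore holds a change of line and the addition of DAPT as well as a day, and these cannot be told apart.

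Glutamate opens AMPA, kainate and NMDA receptors, which carry the fast excitatory input of motor neurons, while GABA and glycine open chloride channels that carry their fast inhibitory input. Each channel is an assembly of subunits drawn from 1 family, and the subunits present set its conductance, kinetics and anchoring. In embryonic motor neurons GABA and glycine are known to depolarise the cell, because the chloride gradient matures late.

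Values are FPKM, fragment numbers divided by gene length and by library size, so that levels of different genes can be set side by side. There are no replicates, so no test, error or p-value could be given, and every statement compares single libraries. A subunit was counted as present at 1 FPKM or more. Steps between libraries were taken on the log2(FPKM + 1) scale, on which the change of a low gene is understated, and a gene was called higher or lower where the step reached 2-fold and the gene was at 1 FPKM or more in either library. In these bulk samples, fewer cells of a type and less RNA per cell cannot be told apart.

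The marker genes followed the labels. Summed FPKM of 5 ES cell markers was 1188, 2.33, 0.386 and 0.221 on days 0, 4, 5 and 6. The sum over 4 progenitor markers was 2.14, 201, 40.1 and 9.49, and that over 5 motor neuron markers was 0.744, 10.5, 157 and 162. Dividing-cell markers summed to 445, 393, 79.9 and 7.19. Spinal interneuron markers were low, with a sum of 1.16, 1.56, 4.78 and 2.64, and 0, 0, 2 and 1 of the 10 at 1 FPKM. The 7 glial markers summed to 5.74, 10.5, 12.8 and 11.9, of which Mbp alone made 11.5 on day 5 and 9.90 on day 6, while the astrocyte gene Gfap was listed at 0 on day 6. The part of other cells and of dividing progenitors in the receptor values was not tested.

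The receptor subunits were almost all silent in ES cells and appeared with the motor neuron markers, mostly on days 5 and 6. The number at 1 FPKM or more was 1 of 42 (2.38%) on day 0, 4 (9.52%) on day 4, 12 (28.6%) on day 5 and 16 (38.1%) on day 6. Over all rows of the table the share at 1 FPKM was 27.1%, 27.9%, 28.1% and 27.9% on the same days, and over the 18561 protein-coding rows it was 47.0%, 48.4%, 48.9% and 48.7%. The receptor share thus grew across days on which the share of all genes hardly moved. Summed over the 42 subunits, FPKM was 5.79, 11.4, 44.2 and 133. The families differed: 11 of 18 glutamate receptor subunits (61.1%) reached 1 FPKM on day 6, against 3 of 19 GABA-A subunits (15.8%) and 2 of 5 glycine receptor subunits (40.0%).

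**Figure D1:**
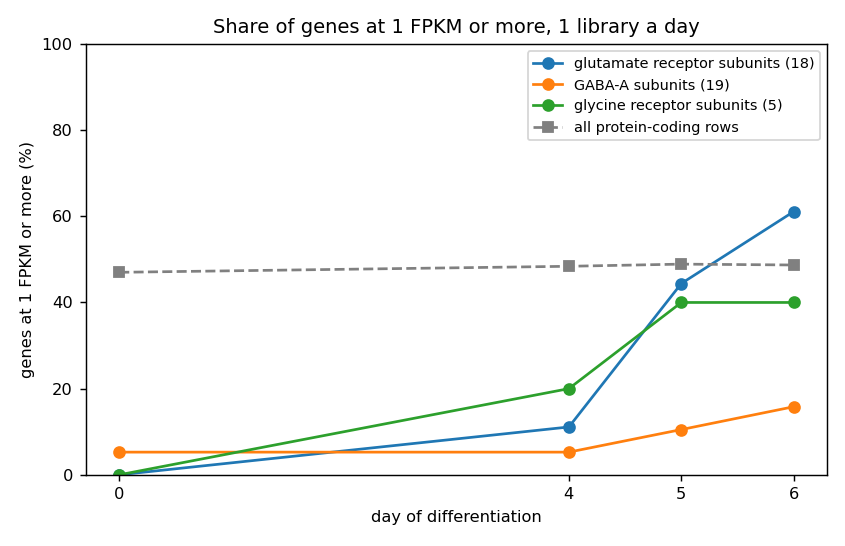
Share of genes at 1 FPKM or more (y axis, percent) against the day of differentiation (x axis), 1 library a day, for the glutamate, GABA-A and glycine receptor subunits and for all protein-coding rows. The glutamate receptor share went from 0 on day 0 to 61.1% on day 6 and the GABA-A share from 5.26% to 15.8%, while the protein-coding share lay between 47.0% and 48.9%.

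By first day at 1 FPKM, the subunits fell into 5 sets. On day 0, 1 subunit was present. Gria3, Grik5 and Glra1 were first present on day 4. On day 5, 8 were first present, among them Gria2, Gria4, Grik2, Grik3, Grid1 and Glrb. The 5 of day 6 were Grin1, Grin2a, Grin2b, Gabrb2 and Glra2. The other 25 stayed below 1 FPKM in every library. Of all protein-coding rows, 47.0% were first present on day 0, 5.69% on day 4, 2.98% on day 5 and 1.82% on day 6, and 42.5% on none of these days. Of the 17 subunits that reached 1 FPKM, 16 had their highest level on day 6, all but Glra1, and 13 were higher on each later day than on the one before.

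**Figure D2:**
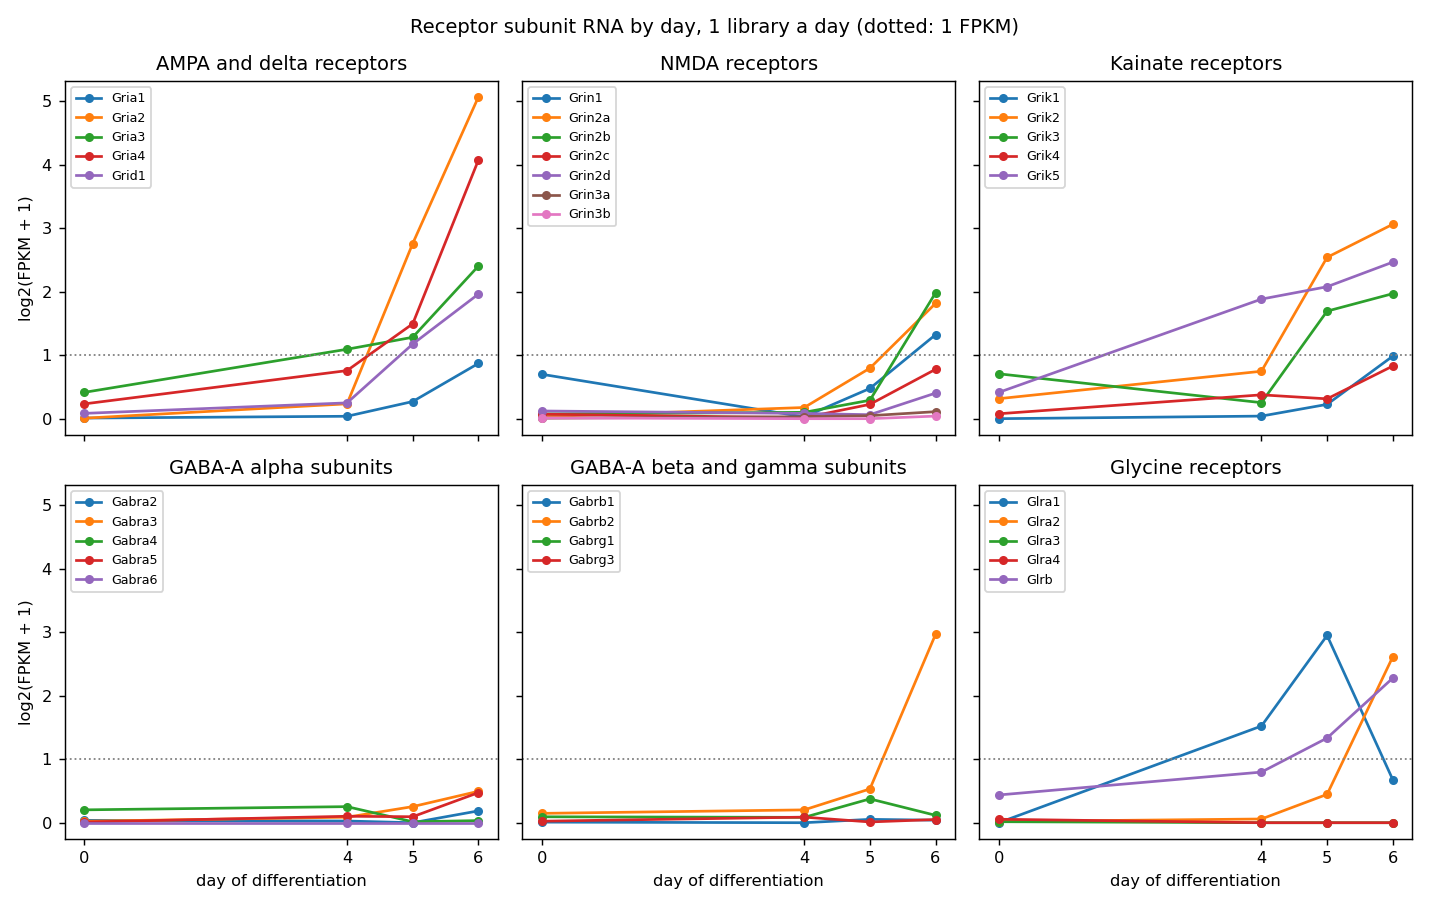
Level of each subunit as log2(FPKM + 1) (y axis) against the day of differentiation (x axis), 1 library a day, with the dotted line at 1 FPKM; some subunits, the GABA-A delta, epsilon, pi, theta and rho subunits among them, are not drawn. Gria2 reached the highest level on day 6 (32.4 FPKM), Gabra2 to Gabra6 stayed under the line, and Glra1 had its peak on day 5.

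AMPA receptors carry most fast excitatory transmission, and their summed level was the highest of the 3 main glutamate receptor families on day 6. Gria2 encodes the subunit whose edited form makes AMPA channels nearly impermeable to calcium. Its level was 0.0055, 0.176, 5.76 and 32.4 FPKM on days 0, 4, 5 and 6, the highest of the 42 subunits on day 6. The step was 2.52 higher from day 4 to day 5 and 2.30 higher from day 5 to day 6 on the log2 scale, and day 6 was 5.63-fold above day 5 in FPKM. Gria4, which forms fast AMPA channels, ranked second on day 6, with 0.175, 0.690, 1.81 and 15.8 FPKM. Most of its increase fell between day 5 and day 6 (2.58 on the log2 scale, 8.69-fold in FPKM), while the step from day 4 to day 5 was 0.74. Gria3 was the earliest AMPA subunit at the 1 FPKM threshold, at 0.333, 1.13, 1.43 and 4.28 FPKM, and its only called step was the last (1.12). At 0.5 FPKM it was first present on day 4 together with Gria4, and at 2 FPKM on day 6, after Gria2. Gria1, the subunit known from activity-dependent synapses, stayed below the threshold at 0.0067, 0.0267, 0.206 and 0.827 FPKM.

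The makeup of the AMPA family changed as its sum grew from 0.520 through 2.03 and 9.21 to 53.3 FPKM. Gria3 made 56.0% of the family on day 4, 15.5% on day 5 and 8.04% on day 6. Gria2 made 8.67%, 62.5% and 60.8% on these days. Gria4 made 34.1%, 19.7% and 29.6%, and Gria1 at most 2.23%. The lead passed from Gria3 to Gria2 between day 4 and day 5, and Gria4 gained share on day 6.

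The 250 bases before the start sites of Gria2 and Gria4 are printed here as the promoters of the pair with the highest levels on day 6; they come from RefSeq on build GRCm38.p6 and are given in the direction of transcription. The Gria2 row (ENSMUSG00000033981) has its window at chr3:80802836-80803085, minus strand, and its capitals mark the stretch that best matches an RE1 element. The Gria4 row (ENSMUSG00000025892) has its window at chr9:4796235-4796484, minus strand, and its capitals mark CG dinucleotides.
Gria2: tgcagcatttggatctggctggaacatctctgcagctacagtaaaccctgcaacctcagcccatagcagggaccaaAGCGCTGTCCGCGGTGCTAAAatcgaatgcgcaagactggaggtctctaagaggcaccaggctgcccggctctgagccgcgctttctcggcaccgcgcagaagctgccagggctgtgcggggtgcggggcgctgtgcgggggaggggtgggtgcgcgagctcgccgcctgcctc
Gria4: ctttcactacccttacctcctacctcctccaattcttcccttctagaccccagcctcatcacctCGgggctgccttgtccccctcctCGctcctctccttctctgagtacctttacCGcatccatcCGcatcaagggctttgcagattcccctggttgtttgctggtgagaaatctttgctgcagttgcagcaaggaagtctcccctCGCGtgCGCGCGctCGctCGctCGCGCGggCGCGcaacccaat
RE1 is the element bound by Rest, a repressor known to hold neuronal genes silent in other cells. The letters searched, on both strands, were TTCAGCACC and GGACAG with 2 free bases between them and, after 1 further free base, GCC. In the Gria2 window 16 of these 18 letters matched, and the first capital lies 174 bases before the start site. Of all 32851 promoter windows of 300 bases (250 before to 50 after a start), 0.0457% matched at 16 letters or more and 0.575% at 14 or more. The cut of 16 was the best score among the subunit windows, that of Gria2 itself, so the 0.0457% is not independent of it. Among the 29 subunits with a window, Gria2 was the 1 that reached 14 letters. Rest itself was at 80.9, 6.91, 2.38 and 1.07 FPKM on days 0, 4, 5 and 6, lower on each later day while Gria2 was higher, and its part in the Gria2 level was not tested.

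Kainate receptors act before and after the synapse, and 3 of their 5 subunits were present by day 5, with no further one on day 6. Grik5, a high-affinity subunit that needs a partner of the Grik1 to Grik3 group to form a channel, was at 0.332, 2.69, 3.22 and 4.52 FPKM. Its step was 1.47 from day 0 to day 4 and stayed under 2-fold afterwards (0.19 and 0.39). Grik2, such a partner, was at 0.244, 0.678, 4.81 and 7.34 FPKM, with a step of 1.79 from day 4 to day 5 and 0.52 from day 5 to day 6. Grik3, another partner, was at 0.632, 0.191, 2.23 and 2.91 FPKM, with steps of 1.44 and 0.28 between the same days. These 3 subunits thus made their main step by day 5.

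The remaining kainate subunits were close to the threshold on day 6. Grik1 was at 0, 0.0286, 0.169 and 0.978 FPKM, just under 1 FPKM, and Grik4 reached 0.776 FPKM on day 6. The kainate sum was 1.26, 3.88, 10.7 and 16.5 FPKM. Grik5 made 69.2% of it on day 4, 30.2% on day 5 and 27.3% on day 6, while Grik2 made 17.5%, 45.1% and 44.4%. The lead thus passed from Grik5 to Grik2 between day 4 and day 5. In RefSeq, Grik5 overlaps the zinc-finger gene Zfp574 (2.05, 5.38, 4.40 and 3.22 FPKM), and Grik3 holds a ferritin pseudogene whose symbol in the table is Ftl2 (0.360, 1.67, 75.4 and 122 FPKM). Whether the deposited values counted reads by strand or exon was not stated in any source used here, so the share of such reads in the Grik5 and Grik3 values was not tested.

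NMDA receptors, which need both glutamate and depolarisation to open, came last. Grin1, the subunit that every NMDA receptor contains, was at 0.624, 0.0199, 0.391 and 1.50 FPKM, so that it crossed 1 FPKM only on day 6, with a last step of 0.85 on the log2(FPKM + 1) scale, short of a call. Grin2b, the glutamate-binding subunit typical of young neurons, was at 0.0529, 0.0719, 0.223 and 2.95 FPKM. Its last step was 1.69. Grin2a, the glutamate-binding subunit typical of mature synapses, was at 0.0214, 0.130, 0.735 and 2.52 FPKM, with a last step of 1.02. On day 6 Grin2b made 36.3% of the NMDA sum, Grin2a 31.1% and Grin1 18.5%. The obligatory subunit was thus lower per length than either of the 2 leading partners. Grin2c reached 0.714 FPKM and Grin2d 0.322 FPKM on day 6, and the Grin3a and Grin3b subunits, which bind glycine, stayed under 0.1 FPKM in every library. The NMDA sum was 0.850, 0.313, 1.60 and 8.11 FPKM, and the AMPA sum was 6.47, 5.77 and 6.57 times as high on days 4, 5 and 6. In RefSeq, Grin1 overlaps the coding gene Lrrc26, which was listed at 0 in every library, and a noncoding antisense gene.

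Delta receptors are channel-like proteins that bind cerebellins at synapses. Grid1 was at 0.0596, 0.188, 1.26 and 2.89 FPKM, first present on day 5, with steps of 0.93 and 0.79 after day 4 on the log2(FPKM + 1) scale, short of a call. In plain FPKM, day 6 was 2.30-fold above day 5.

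GABA-A receptors are mostly built from alpha, beta and gamma subunits, with GABA bound between an alpha and a beta subunit. Gabrb2, a beta subunit, was at 0.107, 0.150, 0.445 and 6.81 FPKM, nearly all of it on day 6, where its step was 2.43. It ranked 7 of the 42 subunits by FPKM on day 6. Gabrb1 did not pass 0.0374 FPKM, Gabrg1 stayed at or below 0.297 FPKM and Gabrg3 at or below 0.0627 FPKM.

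The alpha subunits Gabra2 to Gabra6 stayed below 1 FPKM in every library. Gabra3 was at 0.409 FPKM on day 6 and Gabra5 at 0.388 FPKM. Gabra2 was at 0.138 FPKM on day 6 and Gabra4 at 0.0234 FPKM, and the cerebellar subunit Gabra6 was listed at 0 in every library. The delta, epsilon, pi and theta subunits (Gabrd, Gabre, Gabrp and Gabrq) lay between 0 and 0.260 FPKM, and the rho subunits (Gabrr1, Gabrr2 and Gabrr3), which are best known from the retina, did not pass 0.0828 FPKM. Gabre was highest on day 0, at 0.260 FPKM, and listed at 0 on day 6.

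Many GABA-A genes sit in clusters. With no other protein-coding gene between them in RefSeq, Gabrg1 lies beside Gabra2, Gabra4 beside Gabrb1, Gabra3 beside Gabrq, and Gabrr2 beside Gabrr1, and no gene of these pairs reached 1 FPKM. Gria2 and Glrb are also neighbours, and both were first present on day 5. With another threshold Glrb moved to day 4 (0.5 FPKM) or day 6 (2 FPKM), while Gria2 stayed on day 5. In RefSeq, Gabra4 overlaps Gabrb1, so values of this pair may share reads.

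Glycine receptors join alpha subunits to the beta subunit, Glrb, which ties the channel to the scaffold protein gephyrin. In the rodent spinal cord Glra2 is known as the leading alpha subunit before birth and Glra1 in the adult. In these libraries Glra1 came first and Glra2 followed. Glra1 was listed at 0 on day 0 and was at 1.87, 6.71 and 0.600 FPKM on days 4, 5 and 6. Its steps were 1.52 and 1.43 and then −2.27, which made it the only subunit called lower between any 2 consecutive libraries. Glra2 was at 0.0130, 0.0415, 0.363 and 5.11 FPKM, with a last step of 2.16.

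Glra1 made 97.8% of the alpha sum on day 4, 94.9% on day 5 and 10.5% on day 6, while Glra2 made 2.17%, 5.13% and 89.5%. The lead thus passed from Glra1 to Glra2 within the iCre line, between day 5 and day 6. Glrb was at 0.354, 0.737, 1.52 and 3.84 FPKM, with steps of 0.54 and 0.94 after day 4. The alpha sum was 2.59, 4.66 and 1.48 times the Glrb level on days 4, 5 and 6. Glra3 and Glra4 were listed at 0 on days 4, 5 and 6 and did not pass 0.0386 FPKM on day 0. Of the marker sums, only that of motor neurons was higher on day 6 than on day 5 (157 to 162 summed FPKM). Those of progenitors (40.1 to 9.49), dividing cells (79.9 to 7.19) and spinal interneurons (4.78 to 2.64) were lower. So were those of glia (12.8 to 11.9) and ES cells (0.386 to 0.221). The part of these cell types in the Glra1 value was not tested.

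**Figure D3:**
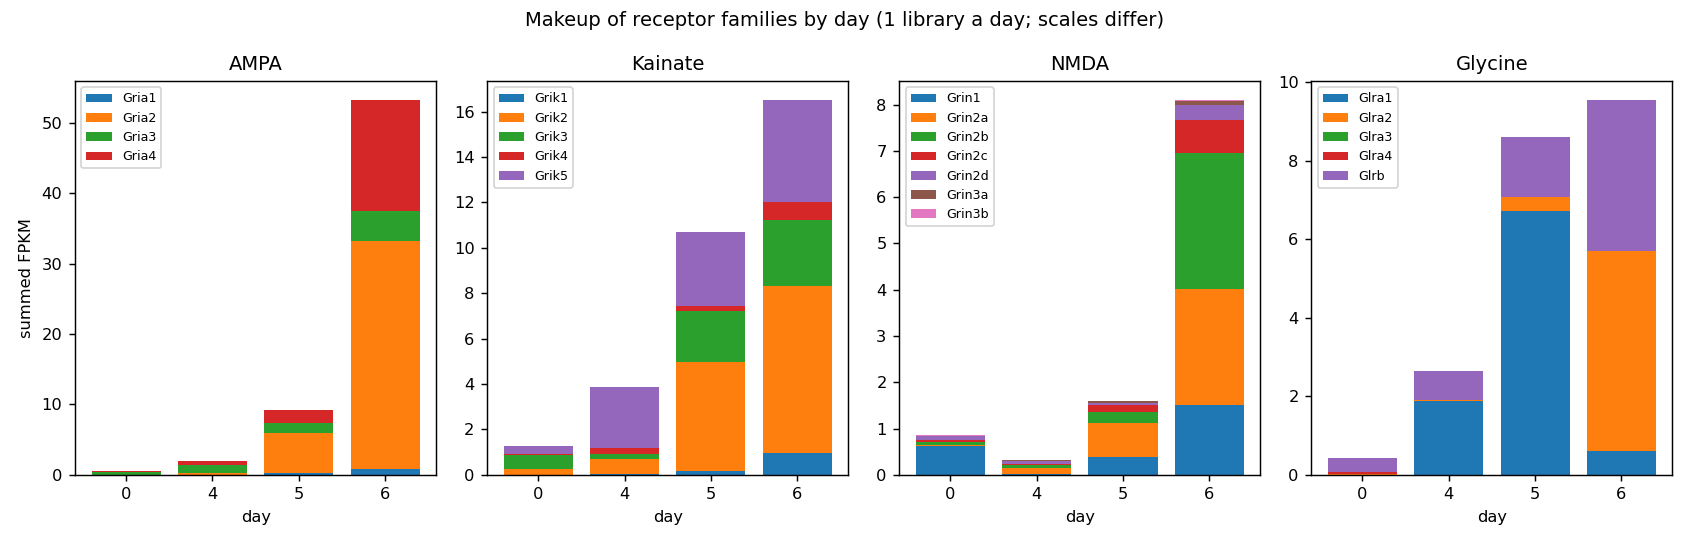
Summed FPKM (y axis, starting at 0, with a scale of its own in each panel) by day (x axis), 1 library a day, stacked by subunit for AMPA, kainate, NMDA and glycine receptors. Gria2 made 60.8% of the AMPA sum on day 6, the NMDA sum was 8.11 FPKM on that day, and Glra2 took the larger share of the glycine alpha subunits from Glra1 between days 5 and 6.

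The promoter windows of Gabrb2 and Glra2 are printed because both subunits made their main step on day 6 and both hold the letters TATAAA. These letters, those of a TATA box, were searched on both strands, whatever the direction of transcription. The Gabrb2 row (ENSMUSG00000007653) has 3 windows. The printed window lies at chr11:42420190-42420439, plus strand, and its capitals start 30 bases before the start site. The Glra2 row (ENSMUSG00000018589) has its window at chrX:165327394-165327643, minus strand, and its capitals, TTTATA, are TATAAA on the other strand and start 36 bases before the start site.
Gabrb2: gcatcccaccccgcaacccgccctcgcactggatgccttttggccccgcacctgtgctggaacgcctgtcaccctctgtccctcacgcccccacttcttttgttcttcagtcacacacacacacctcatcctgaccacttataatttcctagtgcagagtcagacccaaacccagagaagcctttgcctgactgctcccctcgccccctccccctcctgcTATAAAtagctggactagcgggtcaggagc
Glra2: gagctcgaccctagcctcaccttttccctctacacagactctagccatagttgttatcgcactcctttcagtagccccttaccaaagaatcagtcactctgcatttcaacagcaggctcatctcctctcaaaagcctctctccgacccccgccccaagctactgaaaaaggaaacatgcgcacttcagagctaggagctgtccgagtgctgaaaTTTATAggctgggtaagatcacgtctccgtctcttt
Among the 29 subunits with a window, TATAAA was also found for Gabra3 and Grin3b. It was in 5 of the 33 subunit windows, beside 13.6% of all windows. The E box letters CAGATG were found for Gabra5, Gabrr1 and Grin3b (17.2% of all windows). TAATTA, letters that LIM-homeodomain factors such as Isl1 can bind, was found for Gabrg1 (5.29% of all windows), and ATTGAT, letters that Onecut factors can bind, for no subunit (7.54%). A match says only that these letters are in the window.

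CpG dinucleotides, which mark a class of promoters often active in many tissues, ranged widely among the subunits. The 9 genes with a window that reached 1 FPKM held 9 to 50 CpG in 300 bases, with a median of 26. The 20 that did not held 0 to 42, with a median of 10.5, and 8 of them (40.0%) had 4 or fewer, a share near the 36.5% of all 27025 genes with a window. The median over all these genes was 8. Grik3 had the most (50), and Grik4, at 42, stayed below 1 FPKM. Gria4 held 17, and Glra2 held 9 in its single window, as did the poorer windows of Gabrb2, whose richest held 11. The count thus overlapped between the sets. The other 13 subunits had no window and enter none of these counts.

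**Figure D4:**
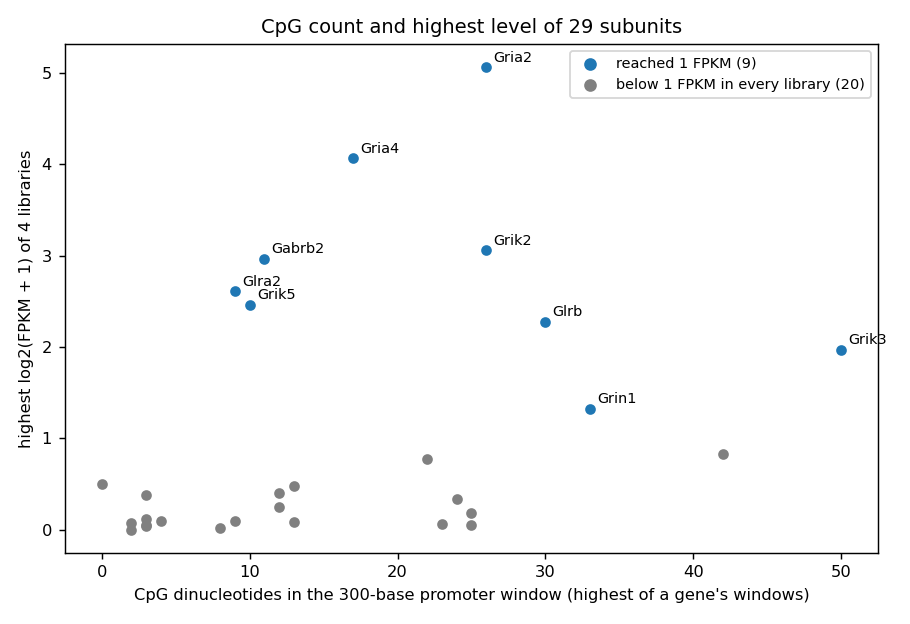
Highest level of each subunit over the 4 libraries as log2(FPKM + 1) (y axis) against the number of CpG dinucleotides in its 300-base promoter window (x axis), for 29 subunits; the 9 that reached 1 FPKM are named. The named subunits lie between 9 and 50 CpG and the others between 0 and 42, so that the ranges overlap.

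Across each step, subunits were called higher far more often than lower. From day 0 to day 4, 4 subunits were measured, of which 2 (Grik5 and Glra1) were higher and 0 lower, against 19.3% higher and 11.9% lower among all genes measured. The median step was 1.07 for the subunits and 0.23 for all genes. From day 4 to day 5, 7 of 12 were higher and 0 lower, against 11.5% and 14.7% of all genes, with medians of 1.43 and −0.11. From day 5 to day 6, 10 of 17 were higher and 1 lower, against 6.57% and 6.19% of all genes, with medians of 1.02 and −0.07. Subunits below 1 FPKM in the earlier library entered only by reaching it in the later (3, 8 and 5 of those measured in the 3 steps), which favours calls of higher. Of the 12 already present on day 5, 6 were higher on day 6 (Gria2, Gria3 and Gria4 among them), 5 were not called (Grik2, Grik3, Grik5, Grid1 and Glrb) and Glra1 was lower. Of these 5, Grid1 (2.30) and Glrb (2.53) passed 2-fold in plain FPKM, where Grik2, Grik3 and Grik5 stood at 1.52, 1.30 and 1.40. Both were called higher with a pseudocount of 0.1 FPKM, and Glrb also with rescaled libraries. For the 12 present on day 5, the matching share over all genes present on day 5 was not taken.

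**Figure D5:**
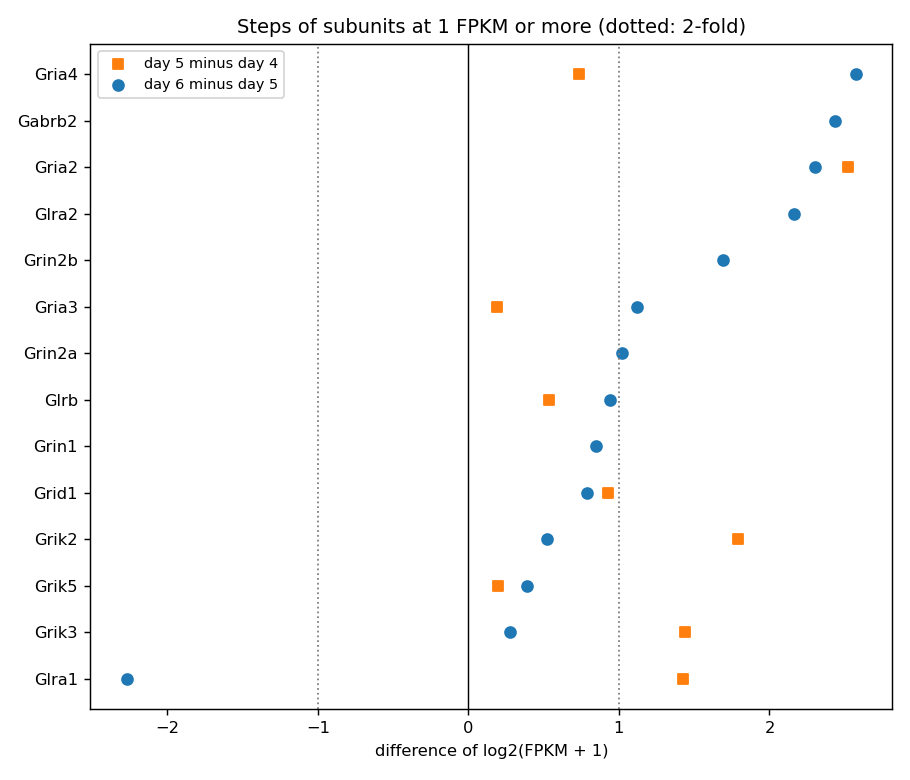
Difference of log2(FPKM + 1) (x axis) for subunits at 1 FPKM or more in either library of the step (y axis), some of which are not drawn, for day 5 minus day 4 (squares) and day 6 minus day 5 (circles), 1 library a day, with dotted lines at 2-fold. The kainate subunits Grik2 and Grik3 lie past 2-fold only in the earlier step, Gria4 and Gria3 only in the later, and Glra1 lies at −2.27 in the later.

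Another scaling of the libraries, which set the median ratio of commonly detected genes to 1, moved the median of all genes from 0.23 to −0.01, from −0.11 to 0.02 and from −0.07 to 0.06 in the 3 steps. The share of all called genes that were higher moved from 61.9% to 47.4% from day 0 to day 4, from 44.0% to 53.4% from day 4 to day 5, and from 51.5% to 62.1% from day 5 to day 6. The median step of the subunits was then 1.32, 1.45 and 1.13, and no subunit changed direction.

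The 25 subunits below 1 FPKM included 4 that came close to it: Gria1, Grin2c, Grik1 and Grik4, with highest values between 0.714 and 0.978 FPKM. At the other end, 13 stayed under 0.1 FPKM in every library, namely Grin3a, Grin3b, Gabra6, Gabrb1, Gabrg3, Gabrd, Gabrp, Gabrq, the 3 rho subunits, Glra3 and Glra4. Of the 25, 13 had their highest value on day 6 and 6 on day 0 (Gabrd, Gabre, Gabrp, Gabrr1, Glra3 and Glra4). At such values a library may hold only a few reads of a gene, and the depth of the libraries was not stated in any source used here.

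Genes that act with these receptors were followed over the same steps, and the shares of all genes called, given above, stand beside each count. Glutamate receptor auxiliary subunits ride with AMPA and kainate channels. Their list here also held the pentraxins Nptx1 and Nptx2 and the pentraxin receptor Nptxr. Of 15 in the list, 6 were measured from day 0 to day 4, with 4 higher and 1 lower. From day 4 to day 5, 1 of 6 was higher and 0 lower, and from day 5 to day 6, 3 of 8 were higher and 1 lower. Their median steps were 1.29, 0.38 and 0.84, beside the 0.23, −0.11 and −0.07 of all genes. Cnih2, which slows AMPA channels, was at 0.184, 3.86, 5.51 and 21.0 FPKM, with steps of 2.04, 0.42 and 1.76. Neto2, a partner of kainate receptors, was at 1.32, 5.68, 7.49 and 13.3 FPKM. Nptxr, a pentraxin receptor that gathers AMPA receptors, was at 0.589, 1.32, 1.12 and 5.20 FPKM. The pentraxin Nptx2 went up and down, at 7.10, 0.294, 4.03 and 0.554 FPKM. It alone gave the calls of lower in this list and the call of higher from day 4 to day 5.

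Scaffolds of glutamate synapses hold receptors at the postsynaptic membrane. Of 17 listed, 11 were measured from day 0 to day 4 with 3 higher and 0 lower, 11 from day 4 to day 5 with 2 higher and 0 lower, and 15 from day 5 to day 6 with 2 higher and 1 lower. Their median steps were 0.45, 0.29 and 0.28. Grip1, which binds AMPA receptor tails, was at 0.324, 4.25, 11.5 and 23.2 FPKM, and Dlgap4 at 2.56, 10.6, 12.5 and 15.9 FPKM. Dlgap1 was late, at 0.149, 0.111, 0.603 and 3.84 FPKM. Homer3 was highest on day 5, at 4.61, 18.2, 25.0 and 11.2 FPKM.

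The partners of inhibitory receptors gather them at the synapse. Of 6 listed, 4 were measured from day 0 to day 4 with 3 higher, 5 from day 4 to day 5 with 2 higher, and 6 from day 5 to day 6 with 0 higher, and none was lower in any step. Their median steps were 1.10, 0.93 and 0.62. Gephyrin (Gphn), which gathers glycine and GABA-A receptors, was at 1.62, 4.81, 6.87 and 12.0 FPKM. Gabarap, which binds GABA-A receptors, was at 8.27, 42.8, 59.4 and 64.6 FPKM, and Lhfpl4, a partner of GABA-A receptors at synapses, at 0.128, 1.34, 4.57 and 5.60 FPKM.

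Chloride transporters set the direction of GABA and glycine currents. Slc12a5, the neuronal exporter KCC2, was at 0.146, 0.832, 3.70 and 7.23 FPKM, and Slc12a2, the importer NKCC1, at 9.40, 7.25, 7.04 and 4.83 FPKM. Slc12a5 was called higher from day 4 to day 5 (1.36), and the steps of Slc12a2 stayed under 2-fold. The exporter was thus below the importer on days 0, 4 and 5 and above it on day 6. Of the RNA editing enzymes, which recode Gria2 and some kainate transcripts, Adarb1 was at 2.59, 2.66, 1.91 and 3.33 FPKM and Adar at 6.21, 7.09, 7.14 and 8.45 FPKM, with no step past 2-fold in the 2 measured genes of that list.

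Among the slow, G protein coupled receptors for glutamate and GABA, 3 of 10 were measured from day 4 to day 5 and all 3 were higher (median 1.52). From day 0 to day 4, 1 was measured and stayed within 2-fold, and from day 5 to day 6, 1 of 3 was higher and 0 lower (median −0.31). Grm2 was at 0, 0.383, 7.36 and 3.66 FPKM and Grm4 at 0.106, 0.167, 2.35 and 1.71 FPKM, both highest on day 5. Gabbr1, a subunit of the GABA-B receptor, was at 9.84, 7.08, 18.9 and 64.6 FPKM, and on day 6 it stood above every ion channel subunit described here. Gabbr2, the other GABA-B subunit, was only at 0.0572, 0.119, 0.203 and 0.968 FPKM, below 1 FPKM in every library.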

How the data were processed

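The RNA values are FPKM made and deposited by the authors for 37450 gene IDs. Per the labels, total RNA was depleted of ribosomal RNA, and per the submitters' processing notes the build was mm9 and the tools were STAR, MACS, HOMER 4.7.2 and Bowtie 0.12.7, with no role named. For the FPKM, the program, the handling of strand and the depth are not given in the sources used here. Low values show the relative FPKM worth of 1 read between libraries. It most often had a ratio of 0.500 for day 0 over day 4 (5.08% of 1004 low genes), 1.04 for day 4 over day 5 (13.0% of 1015) and 1.34 for day 5 over day 6 (13.4% of 1177), within 2%.

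Each of the 42 symbols matched the current symbol of its gene ID. Steps were differences of log2(FPKM + 1) with a pseudocount of 1 FPKM, for genes that reached 1 FPKM in either library, and calls were made at 2-fold. With 1 library a day no test was run. An exact 0 can be a failed estimate, so no ratio of plain FPKM was given against it. Steps and calls on the log2(FPKM + 1) scale did use such values, as for Glra1 from day 0 to day 4. Alternatives were a pseudocount of 0.1 FPKM, no filter, a filter at 0.5 FPKM, thresholds of 0.5 and 2 FPKM, shares with members under 0.1 FPKM set to 0, and libraries rescaled by the median of ratios to the geometric mean over 8244 genes. The scripts ran in Python 3.11.15 with pandas 2.3.3, numpy 2.4.6 and matplotlib 3.10.9. Only the 2-fold calls were tested, with known fold changes put without noise into day 4 values of genes well above the threshold.

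Subunits at 1 FPKM in any library are named with their 4 values and the others by range or selected values. From each of the 7 lists of partner genes, up to 4 genes with the largest step among those at 1 FPKM are named. Some subunits and list genes are counted but not reported here by name. The subunits and lists were chosen with earlier results of these data known. RefSeq tables on GRCm38.p6 gave promoter windows for 29 subunits, neighbours and overlaps. Peak lists were not used here.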

Additional observations from a re-analysis of the deposited data

How the results depend on the processing

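The count of subunits called higher or lower in each step stayed within 1.5 times of the reported value under a pseudocount of 0.1 FPKM, no filter, a filter at 0.5 FPKM and rescaled libraries, and no subunit step reversed. With members under 0.1 FPKM set to 0, 24 of the recomputed shares within families did too, and 1, that of Glra2 on day 4, became 0. The recomputed shares were chosen from the AMPA, kainate, NMDA and glycine alpha subunits, with NMDA on day 6 only. Other shares were not recomputed. The presence threshold mattered most on the early days. At 0.5 FPKM, 3 subunits were present on day 0 and 7 on day 4, and the first day was day 0 for 3, day 4 for 6 and day 5 for 5. At 2 FPKM, 0 were present on day 0 and 1 on day 4, and the first day was day 0 for 0, day 4 for 1 and day 6 for 8. At 0.5 FPKM, Grin1 and Grik3 counted as present on day 0, and at 2 FPKM Grin1 was present on no day. With rescaled libraries Gria3 was first present on day 5 and Grik1 on day 6.

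The smaller pseudocount moved 19 of 33 single steps and added 6 calls of higher: Gria3 from day 0 to day 4 (0.68 to 1.51), Gria4 (0.74 to 1.28) and Grid1 (0.93 to 2.24) from day 4 to day 5, and Grin1 (0.85 to 1.70), Glrb (0.94 to 1.28) and Grid1 (0.79 to 1.14) from day 5 to day 6. Rescaling added Glrb from day 5 to day 6 (1.05). No paired analysis was possible because each day has 1 RNA library and no result comes from a test. The planned count of subunits with a peak near their start site was not run, since the gene positions given are on another build than the peaks. Reads per library are unknown, which limits every value under 1 FPKM.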

Other observations

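Genes that make, load or take up the same transmitters followed another order. Of 14 listed, 6 were measured from day 0 to day 4 (2 higher, 1 lower), 5 from day 4 to day 5 (2 higher, 2 lower) and 5 from day 5 to day 6 (2 higher, 1 lower). The glutamate transporter Slc1a2 was at 0.0125, 2.61, 23.9 and 6.17 FPKM on days 0, 4, 5 and 6, highest on day 5 as Glra1 was. The glial and progenitor glutamate transporter Slc1a3 was at 3.39, 6.65, 0.339 and 0.146 FPKM, and the glycine transporter Slc6a9 at 0.845, 4.64, 0.383 and 0.911 FPKM, both highest in progenitors.

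Outside the naming rule, 4 genes of the list were looked at after their values were seen, because they mark the transmitter a neuron releases. The vesicular glutamate transporter Slc17a6 was at 0.0048, 0, 0.0201 and 1.53 FPKM, so that it first passed 1 FPKM on day 6. The vesicular GABA and glycine transporter Slc32a1 did not pass 0.0245 FPKM in any library. The GABA-making enzyme Gad1 was at 1.08 FPKM on day 0 and at 0.1 FPKM or less on days 4, 5 and 6. The other such enzyme, Gad2, was at 0.0107, 0.0369, 0.0217 and 0.187 FPKM.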
